A study of Mus musculus with 24 samples.

Results

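The cytokines of the gp130 family and their receptors were followed in the dorsal root ganglia (DRGs) of mice after a lesion of the sciatic nerve. The group was set by name, as the ligands *Il6*, *Lif*, *Cntf* and *Clcf1* and the receptor subunits *Il6st*, *Lifr*, *Osmr*, *Cntfr* and *Il6ra*, and its array features were all probes whose deposited gene name was one of these. This gave 14 of the 41174 probes on the array and 8 of its 27398 gene names. *Lif* was not analysed here, because no probe carried its name.

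Ligands of this family signal by bringing gp130, the product of *Il6st*, together with a second signalling chain or with another gp130. IL-6 and CNTF first bind a receptor subunit that does not itself signal (IL-6 receptor alpha, from *Il6ra*, and CNTF receptor alpha, from *Cntfr*), while LIF receptor and oncostatin M receptor pair with gp130 directly. The joined chains activate JAK kinases and the transcription factor STAT3, and in sensory neurons this pathway is known for its part in the response of the cell body to injury of its axon.

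L4 and L5 DRGs of adult male C57BL/6J mice were taken at day 2 and day 5 after the sciatic nerve was lesioned and its ends were rejoined, and control DRGs came from the side that was not injured. The KO samples came from *Nfil3* -/- mice, in which the floxed gene had been deleted in the germline by Cre under a human CMV promoter, so that every cell type lacked it, and the WT samples from wildtype *Nfil3* +/+ littermates. There were 24 samples in 6 groups of 4: WT control, WT day 2, WT day 5, KO control, KO day 2 and KO day 5. The array comparison asked which genes respond to the lesion and which of them respond differently without *Nfil3*, which encodes a transcriptional repressor of the bZIP family.

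The labels name the tissue as DRG neurons, whereas the methods describe whole ganglia, and markers of macrophages, Schwann cells and satellite glia were measured beside those of neurons. In such bulk samples fewer cells of a type and less RNA per cell cannot be told apart. Values are quantile normalised log2 intensities, each unit is a doubling of signal, and tests are those of limma with Benjamini-Hochberg adjustment over all 41174 probes. A gene was called at an adjusted p under 0.05 on its brightest probe. Between 54.5% and 72.3% of the probes were well above background in a sample, and 0 spots were saturated. *Nfil3* itself lay between 8.44 and 11.08 in the 12 WT samples and between 2.82 and 7.59 in the 12 KO samples. The highest of the KO values belonged to KO control replicate 4, for which the label fields also disagree, since its title names day 0 and its day field day 5. Differences that rest on it are given with and without it for the called members. For the 5 members that were not called, leaving it out moved the 25 differences that rest on it by -0.15 to 0.15, and none was then called. The counts of called genes given below for the gene lists were the same without it, except where stated. Some lists with no count below did change. In the Schwann cell list 1 gene was called higher at day 2 with it and 0 without it. In the satellite glia list 3 genes were called higher at day 5 with it and 1 without it. At day 2, 4 genes of that list were called lower with it and 5 without it. In the list of T and B lymphocytes 0 genes were called higher at day 2 with it and 1 without it.

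The probes behind the called members show what was measured. Their positions come from the annotation of the array design (mm9), and each probe was assigned by that annotation to a RefSeq transcript of its gene. The *Il6* probe (chr5:30346362-30346421) was spotted 10 times on each array and every other member probe once. The first 30 bases are given for the *Il6* probe and for both *Osmr* probes (chr15:6763686-6763745 for A_51_P319460 and chr15:6765043-6765102 for A_52_P495729), and all 60 for the *Clcf1* probe (chr19:4222480-4222539), whose calls the results below turn on.
Il6 A_51_P217218: atattctgttacctagccagatggtttctt
Clcf1 A_51_P102421: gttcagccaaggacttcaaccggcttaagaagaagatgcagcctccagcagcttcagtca
Osmr A_51_P319460: attgcagatgctctgtttacattttcttgt
Osmr A_52_P495729: ttattgcagtagcttgacatagggtgtaca

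After the lesion *Il6* and *Clcf1* rose, *Osmr* fell at day 5, and the other 5 measured members did not pass the test. Of the 8 members, 3 were called for the lesion in both genotypes together, against 26.3% of all genes, so the share of members was near the background. The median difference over the members was 0.14 at day 2 and 0.22 at day 5, beside -0.02 and -0.03 over all genes. No member was called between KO and WT.

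**Figure D1:**
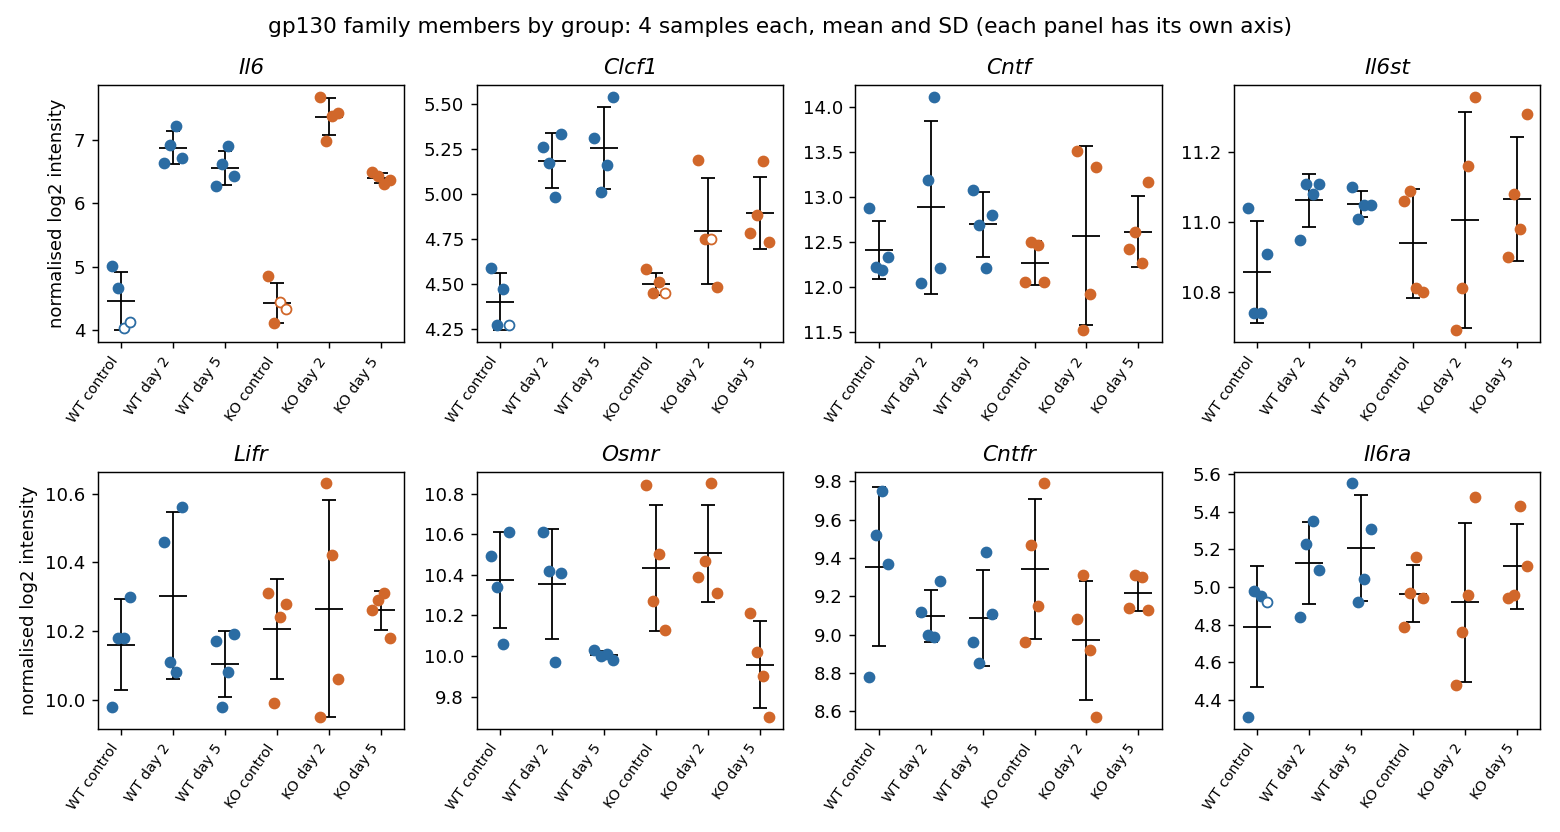
Normalised log2 intensity (vertical axis, scaled separately in each panel) of the brightest probe of each measured member in the 6 groups, with 1 point per sample, WT in blue and KO in orange, and bars for the mean and SD of 4 samples. Open points were not well above background. All lesioned samples lie above all controls for *Il6*, from 6.27 to 7.68 against 4.04 to 5.01, and the day 2 samples of *Cntf* spread most widely, from 11.52 to 14.11.

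*Il6*, the founding ligand of the family and an acute-phase cytokine, had the largest change among the members. In WT controls it lay at 5.01, 4.66, 4.04 and 4.13 and in KO controls at 4.86, 4.11, 4.44 and 4.34. At day 2 it lay at 6.64, 6.92, 7.22 and 6.71 in WT and at 7.68, 6.98, 7.37 and 7.42 in KO. At day 5 it lay at 6.27, 6.62, 6.90 and 6.43 in WT and at 6.49, 6.43, 6.30 and 6.37 in KO. Neither lesion group overlapped its control group in either genotype, and in KO, unlike WT, the day 2 and day 5 samples did not overlap each other.

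Averaged over the genotypes *Il6* rose by 2.67 ± 0.15 (SE) at day 2, a 6.36-fold difference (limma, adjusted p = 6.64e-11). At day 5 it was 2.03 ± 0.15 above control, or 4.08-fold (limma, adjusted p = 2.56e-09). From day 2 to day 5 it fell by 0.64 (limma, adjusted p = 0.0182). By the scanner's flags, judged over the 10 spots, *Il6* exceeded the background clearly in 2 of 4 controls per genotype and in all 16 lesioned samples. This split of the controls followed the dye: those labelled with Cy3 were flagged as above background and those labelled with Cy5 were not. The size of the difference depended on the background correction: at day 2 it was 1.43 with no correction, 1.23 with normexp and 3.35 with the scanner's own processed signals, each with an adjusted p no higher than 4.61e-11. Within each of the 3 slides, lesion minus control was between 2.64 and 2.90 at day 2 and between 1.68 and 2.54 at day 5. The groups were not spread evenly over the slides, and on 1 slide the day 2 value (2.69) rested on 1 day 2 sample, from KO.

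In the single genotypes *Il6* rose by 2.41 at day 2 and 2.09 at day 5 in WT, and by 2.93 and 1.96 in KO. Without KO control replicate 4 the KO values were 2.89 and 1.93, and the averages over the genotypes 2.65 and 2.01. KO day 2 exceeded WT day 2 by 0.49 (95% confidence interval 0.05 to 0.92), with overlapping samples and an adjusted p of 0.9998 (limma). At day 5 KO minus WT was -0.16 (95% confidence interval -0.59 to 0.28), and in controls -0.02 (-0.46 to 0.41), or 0.01 without KO control replicate 4.

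The RefSeq promoter of *Il6* is shown because *Il6* changed most and its window held the one match upstream of a called member. The 250 bases before its start lie at chr5:30012864-30013113 on the plus strand of GRCm38.p6, and the capitals mark a match to the AP-1 motif TGANTCA at position -249 from the start.
Il6 promoter: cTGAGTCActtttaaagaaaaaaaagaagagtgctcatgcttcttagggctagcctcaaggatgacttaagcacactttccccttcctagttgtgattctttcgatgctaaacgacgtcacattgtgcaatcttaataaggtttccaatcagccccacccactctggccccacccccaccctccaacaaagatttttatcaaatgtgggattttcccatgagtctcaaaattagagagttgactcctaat

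The motifs were searched on both strands of windows of 300 bases, from 250 before to 50 after the start. AP-1 (TGANTCA) was held by 7.81% of the 32851 promoters, and among the measured members by *Il6*, by *Cntf* at position -245 and by *Osmr* at 3. The STAT motif TTCNNNGAA (8.30% of promoters), the NFIL3 and PAR bZIP motifs TTACGTAA (0.119%) and TTATGTAA (0.938%), and the CRE TGACGTCA (1.79%) had no match in the member windows. The motifs did not overlap in these windows, and *Clcf1* had no entry in the promoter table.

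*Clcf1* encodes cardiotrophin-like cytokine factor 1, a ligand of the CNTF receptor complex. In WT controls it lay at 4.59, 4.27, 4.47 and 4.27, and in KO controls at 4.58, 4.45, 4.51 and 4.45. WT samples lay at 5.26, 5.17, 4.98 and 5.33 at day 2 and at 5.31, 5.01, 5.16 and 5.54 at day 5, all above the WT controls. KO samples lay at 5.19, 4.75, 4.75 and 4.48 at day 2, overlapping the KO controls, and at 4.78, 4.88, 5.18 and 4.73 at day 5, without overlap. The probe was dim, and 21 of the 24 samples exceeded its background clearly, the others all being labelled with Cy5.

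*Clcf1* rose in WT by 0.78 ± 0.14 at day 2 (limma, adjusted p = 0.000913) and by 0.85 ± 0.14 at day 5 (limma, adjusted p = 0.000286). In KO the differences were 0.29 ± 0.14 at day 2 (adjusted p = 0.212) and 0.39 ± 0.14 at day 5 (adjusted p = 0.0786), neither called by limma. The KO day 5 difference was called by limma with the processed signals (0.79, adjusted p = 0.0199). It was also called with array as a random block and dye as a covariate (0.42, adjusted p = 0.0423), and without KO day 2 replicate 1 (0.39, adjusted p = 0.0414). Without KO control replicate 4 the KO differences were 0.28 and 0.38. Averaged over the genotypes it rose by 0.54 at day 2 (adjusted p = 0.000481) and by 0.62 at day 5 (adjusted p = 8.62e-05), or by 0.53 and 0.62 without that sample.

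The genotypes were not shown to differ in their *Clcf1* response. KO minus WT was -0.40 at day 2 (95% confidence interval -0.69 to -0.10) and -0.36 at day 5 (-0.66 to -0.07), beside 0.10 in controls (-0.20 to 0.39), or 0.11 without KO control replicate 4. The interaction of time and genotype had an unadjusted p of 0.0404 and an adjusted p of 0.9999 (limma). Without the 4 controls that shared an array with a lesioned sample, the WT day 2 difference was 0.65 and no longer called (adjusted p = 0.0531). With no background correction the WT differences were 0.25 at day 2 and 0.28 at day 5.

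Relative to control *Clcf1*, like *Il6*, moved in the same direction as the macrophage markers. From day 2 to day 5, however, *Il6* fell (-0.64), whereas the mean level of the macrophage marker list rose in both genotypes. All 12 genes of that list were called higher at day 5 and 8 of 12 at day 2, among them the complement genes *C1qa* (2.05 at day 5), *C1qc* (2.01) and *C1qb* (1.99) and *Emr1*, which encodes F4/80 (1.89). The mean log2 level of the list was 7.28 to 7.96 in WT control, 7.96 to 8.64 in WT day 2 and 9.19 to 9.51 in WT day 5. It was 7.29 to 7.87 in KO control, 7.69 to 8.63 in KO day 2 and 8.97 to 9.30 in KO day 5. All 12 markers were well above background in all 24 samples, controls included. Neuron markers moved the other way, with 8 of 10 lower at day 2 and 7 of 10 at day 5, such as the sodium channel gene *Scn10a* (-1.14 at day 5) and the synaptic gene *Snap25* (-0.76). The neuronal tubulin gene *Tubb3*, on the same list, was called higher at day 5 by 0.43 (adjusted p = 1.07e-06) and differed by 0.13 at day 2 (adjusted p = 0.0696). Over the 24 samples *Clcf1* had a Pearson r of 0.67 with the macrophage list and -0.70 with the neuron list. For *Il6* these were 0.60 and -0.84, all given as a description. The part of either cell type in the change of *Il6*, *Clcf1* or *Osmr* was not tested.

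*Cntf*, the ciliary neurotrophic factor of Schwann cells, was not called in any comparison. It differed from control by 0.39 at day 2 (95% confidence interval -0.24 to 1.02) and by 0.32 at day 5 (-0.31 to 0.95). Its day 2 samples lay at 12.04, 13.18, 14.11 and 12.21 in WT and at 13.51, 11.52, 11.92 and 13.33 in KO, above and below the controls of both genotypes, which lay between 12.05 and 12.88. The probe's annotation also names the RefSeq transcript of a *Zfp91*-*Cntf* read-through gene, so the 2 transcripts cannot be told apart.

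*Cntf* varied with the myelin and Schwann cell markers. Across the 24 samples, which share arrays and normalisation, its level and the mean of 8 Schwann cell markers had a Pearson r of 0.91 and a Spearman rho of 0.84, given as a description. Without the 2 samples farthest from the median of the list r was 0.84, and over the 8 controls alone it was 0.87, over the 8 day 2 samples 0.96 and over the 8 day 5 samples 0.85. The same correlations over 24 samples were 0.75 (rho 0.72) with the endothelial list and 0.72 (rho 0.73) with the fibroblast list, so the Schwann cell list was not alone in varying with *Cntf*. The day 2 range of the list was 12.43 to 13.54 in WT and 11.99 to 13.05 in KO. The gene most like *Cntf* over the 24 samples was *Prx*, the myelin gene periaxin, which is on that list (r = 0.96), followed by *Ccdc37* (0.95) and *Evc2* (0.95).

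**Figure D2:**
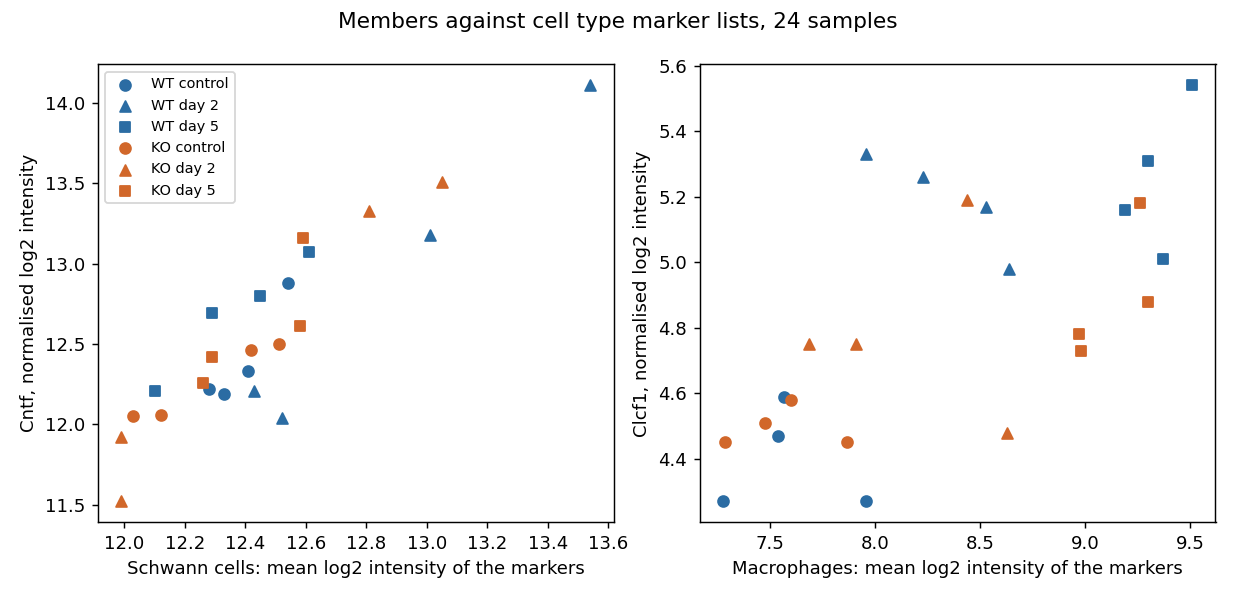
Normalised log2 intensity of *Cntf* against the mean log2 intensity of the 8 Schwann cell markers (left) and of *Clcf1* against that of the 12 macrophage markers (right), with 1 point per sample, WT in blue, KO in orange, circles for control, triangles for day 2 and squares for day 5. *Cntf* follows its list within each day, and the day 5 samples lie farthest right for the macrophage list, between 8.97 and 9.51.

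Among the receptors, *Osmr*, the oncostatin M receptor chain that pairs with gp130, was the one called. On its brightest probe WT samples lay at 10.49, 10.34, 10.06 and 10.61 in control, at 10.61, 10.42, 9.97 and 10.41 at day 2 and between 9.98 and 10.03 in all 4 samples at day 5. KO samples lay at 10.84, 10.27, 10.50 and 10.13 in control, at 10.39, 10.47, 10.85 and 10.31 at day 2 and at 10.21, 10.02, 9.90 and 9.70 at day 5. The day 5 samples were below all controls in WT but overlapped them in KO, where the day 2 samples lay above all those of day 5.

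*Osmr* fell by 0.43 from control to day 5 over both genotypes (limma, adjusted p = 0.011), and 13.0% of all genes were called lower in that comparison. From day 2 to day 5 it fell by 0.45 (limma, adjusted p = 0.0416), together with *Il6*, so that 2 of 8 members were called lower against 1.01% of all genes. That call of *Osmr* was lost, leaving *Il6* as the 1 member called, when any one of 14 samples was left out (adjusted p 0.0519 to 0.0932): WT control replicate 2, KO control replicate 3, WT day 2 replicates 1, 2 and 4, KO day 2 replicates 2 and 3, all 4 WT day 5 samples and KO day 5 replicates 2, 3 and 4. Its difference from control at day 2 was 0.02 (adjusted p = 0.937). In the single genotypes day 5 minus control was -0.37 in WT (adjusted p = 0.171) and -0.48 in KO (adjusted p = 0.0694). With slide as a block both were called by limma, at -0.45 in WT (adjusted p = 0.0376) and -0.45 in KO (adjusted p = 0.0451), and so they were with array as a random block and dye as a covariate (-0.43, adjusted p = 0.0289, and -0.44, adjusted p = 0.0284). Without KO control replicate 4 the KO value was -0.58 and was called by limma (adjusted p = 0.0394), and the fall over both genotypes was -0.48 from control and -0.45 from day 2 (adjusted p = 0.00587 and 0.0372). In controls KO minus WT was 0.06, or 0.16 without that sample. Without the 4 controls on an array with a lesioned sample, the fall over both genotypes was -0.35 and no longer called (adjusted p = 0.0965).

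The second *Osmr* probe, A_52_P495729, shared the fall from day 2 to day 5 but not the values at day 2. It was higher than control at day 2 by 0.33 ± 0.09 (limma, adjusted p = 0.00998), and in KO the day 2 samples at 6.19, 6.21, 6.23 and 6.16 lay above all controls at 5.86, 5.78, 5.77 and 5.64 (difference 0.43, adjusted p = 0.0289). Without KO control replicate 4 these were 0.31 over both genotypes (adjusted p = 0.0227) and 0.39 in KO, which was no longer called by limma (adjusted p = 0.0821). At day 5 it was 0.24 below control, which was not called (adjusted p = 0.0631). From day 2 to day 5 it fell by 0.57 (limma, adjusted p = 0.000661).

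**Figure D3:**
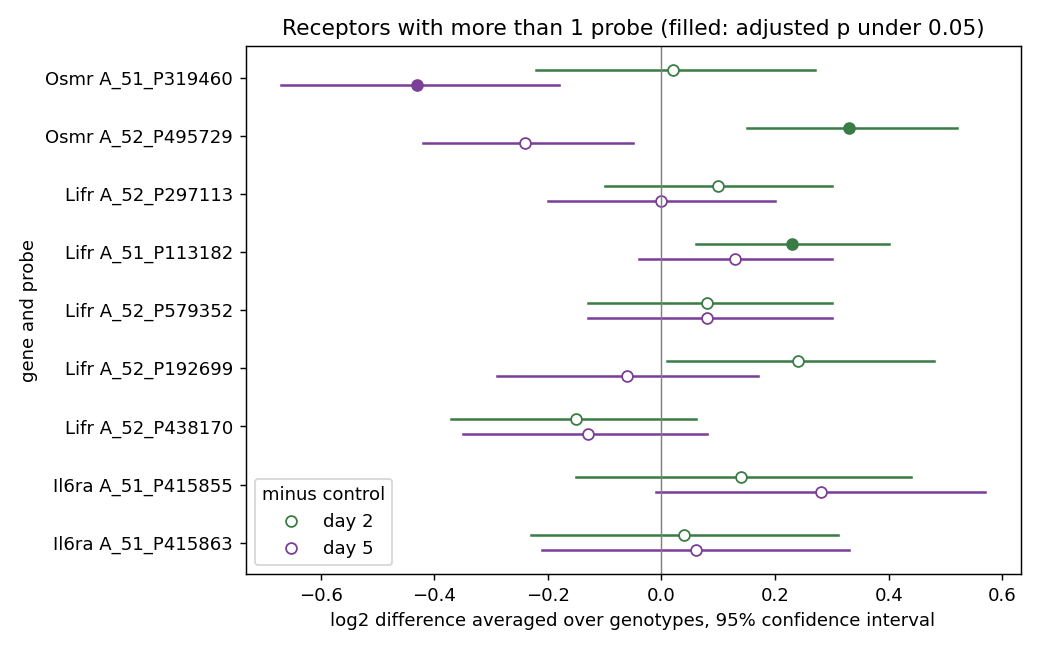
Difference from control on the log2 scale, averaged over genotypes, at day 2 (green) and day 5 (purple) for every probe of the receptors with more than 1 probe, with 95% confidence intervals. Filled points had an adjusted p under 0.05. For *Osmr* the brightest probe was called at day 5 (-0.43) and the other at day 2 (0.33), and of 5 *Lifr* probes 1 was called, at day 2 (0.23).

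*Il6st*, the shared gp130 chain, was bright in every sample, from 10.69 to 11.36. It differed from control by 0.13 at day 2 (95% confidence interval -0.05 to 0.32) and by 0.16 at day 5 (-0.03 to 0.35), and neither was called. In WT the difference was 0.20 at day 2 and 0.19 at day 5, in KO 0.06 and 0.13. The lesion groups overlapped their controls in both genotypes.

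*Lifr*, the LIF receptor chain, had 5 probes. The brightest, A_52_P297113, lay between 9.95 and 10.63 and differed from control by 0.10 at day 2 (95% confidence interval -0.10 to 0.30) and by 0.00 at day 5 (-0.20 to 0.20). Of the other 4, A_51_P113182 was higher at day 2 by 0.23 ± 0.08 (limma, adjusted p = 0.0464), and none of the 5 was called at day 5.

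*Cntfr*, the binding subunit for CNTF, lay between 8.57 and 9.79. It was 0.31 below control at day 2 (95% confidence interval -0.61 to -0.02, adjusted p = 0.132) and 0.19 below at day 5 (adjusted p = 0.408), neither called by limma. The day 2 difference of *Cntfr* was called with slide as a block (-0.39, adjusted p = 0.0447) and without WT control replicate 1 (-0.41, adjusted p = 0.0304). *Il6ra*, the binding subunit for IL-6, was dim, between 4.31 and 5.55 on its brighter probe. It differed from control by 0.14 at day 2 (95% confidence interval -0.15 to 0.44) and by 0.28 at day 5 (-0.01 to 0.57). For its other probe only 7 of 24 samples were flagged as well above background.

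**Figure D4:**
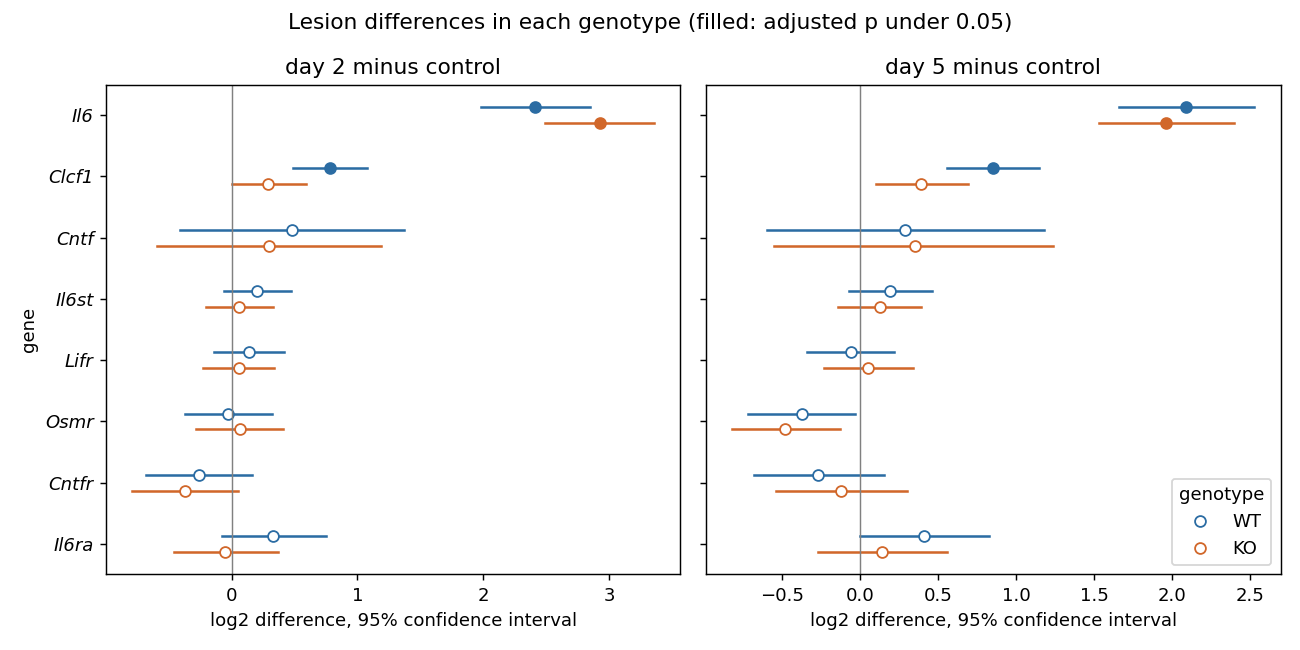
Difference from control on the log2 scale at day 2 (left) and day 5 (right) for the brightest probe of each measured member, in WT (blue) and KO (orange), with 95% confidence intervals. Filled points had an adjusted p under 0.05: *Il6* in all 4 comparisons (1.96 to 2.93) and *Clcf1* in WT (0.78 and 0.85).

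The members called higher in a single genotype were *Il6* and *Clcf1* in WT at day 2, where 5.16% of all genes were called higher, and at day 5, where 6.43% were. In KO it was *Il6* alone at day 2 (5.54% of all genes) and at day 5 (6.14%), where *Clcf1* was called under 3 of 40 alternatives. Over both genotypes *Il6* and *Clcf1* were called higher at day 2 (9.39% of all genes) and at day 5 (10.2%). Between KO and WT, limma called 0 members in controls (0% of all genes), 0 at day 2 (0.0146%) and 0 at day 5 (0.0109%), and 0 for the interaction (0%). At an unadjusted p under 0.05 there were 0 members in controls (1.70% of all genes), 2 at day 2 (*Il6* and *Clcf1*, against 3.86%), 1 at day 5 (*Clcf1*, 2.34%) and 1 for the interaction (*Clcf1*, 2.11%).

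The genes most like *Il6* over the 24 samples were *Steap1* (Pearson r = 0.98), *Serpinb1a* (0.98) and *Pkib* (0.97), and for *Clcf1* they were *Rab33a* (0.85), *Gusb* (0.85) and *Batf* (0.83). For *Osmr* they were *Syt9* (0.88), *Ugcg* (0.88) and *Rgs5* (0.86). For *Il6st* the closest was *Sik1* (0.82), for *Lifr* *Kif3b* (0.89), for *Cntfr* *Ttc17* (0.84) and for *Il6ra* *Slc4a2* (0.68), among 17576 genes in each case. These are descriptions over samples that share arrays and, for *Il6*, rest on the split between control and lesion. How far those of *Clcf1* and *Osmr*, also called for the lesion, rest on it was not tested.

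Further ligands and receptors of the family were measured beside the members. *Ebi3*, the IL-27 beta subunit, rose at day 5 by 0.71 (adjusted p = 0.00023). Of 3 further receptors, *Il31ra*, which pairs with OSMR in the IL-31 receptor, rose at day 2 by 0.59 (adjusted p = 0.0056) and differed by -0.01 at day 5. *Osm*, the ligand of OSMR, had signal well above background in 5 of 24 samples, and *Il31* and *Il27ra* had it in none.

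Downstream of the receptors, most of the genes listed as feedback or off signals rose. Over all genes, 9.39% were called higher and 12.9% lower at day 2, and 10.2% higher and 13.0% lower at day 5, beside which the counts of the lists stand. Of 9 feedback genes 7 were called higher at day 2 and 6 at day 5, with 0 called lower and medians of 0.82 and 0.77, and 7 were called higher at day 5 without KO control replicate 4. *Socs3*, the STAT3-induced inhibitor that binds gp130, rose by 1.50 at day 2 (adjusted p = 4.07e-08) and by 1.29 at day 5 (adjusted p = 2.43e-07). All its controls lay between 8.59 and 9.32, and all lesioned samples between 9.88 and 10.79. *Cish*, also on the feedback list, rose by 1.07 and 1.03 and the phosphatase gene *Ptpn1* by 0.93 and 0.89. *Ptpn6*, a phosphatase of blood cells, rose by 0.54 and 1.09.

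Of 12 kinases, STATs and adaptors 5 were called higher and 3 lower at day 2, and 4 higher and 3 lower at day 5. Without KO control replicate 4, 2 were called lower at day 2, since *Sos1* no longer passed the test there. *Stat5a* (0.95 at day 2, 1.18 at day 5), *Stat5b* (0.60 and 0.79) and *Jak2* (0.37 and 0.44) rose, and the adaptor genes *Shc1* (-0.32 and -0.55) and *Sos1* (-0.30 and -0.54) fell. *Stat3* itself, named here outside the rule for named genes, rose at day 2 by 0.31 (adjusted p = 0.00943) and was 0.21 above control at day 5 (adjusted p = 0.0839).

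Of 20 genes known as STAT3 targets 14 were called higher and 1 lower at each of day 2 and day 5, with medians of 0.67 and 0.65. *Socs3* is counted here as well as among the feedback genes, so these lists are not separate. *Timp1*, an inhibitor of metalloproteinases, rose by 3.14 and 2.19, *Il4ra*, a cytokine receptor gene, by 0.88 and 1.13, and *Gfap*, a glial filament gene clearly above background in 1 of 4 controls per genotype, by 1.43 and 1.22. *Vegfa*, an angiogenic factor, fell by 0.79 and 0.62. Of 5 neuropeptide genes responsive to LIF family cytokines, *Gal* (galanin) rose by 3.73 and 4.38 and *Npy* (neuropeptide Y) by 4.91 and 6.85, while *Tac1*, the substance P precursor, fell by 0.69 and 1.07. Only 2 of the 4 WT controls had *Npy* signal well above background. *Vip* passed the test at day 2 but was well above background in no sample, and no fold change is given. No gene of these lists was called between KO and WT. The part of cell type shares in the changes of these lists was not tested.

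**Figure D5:**
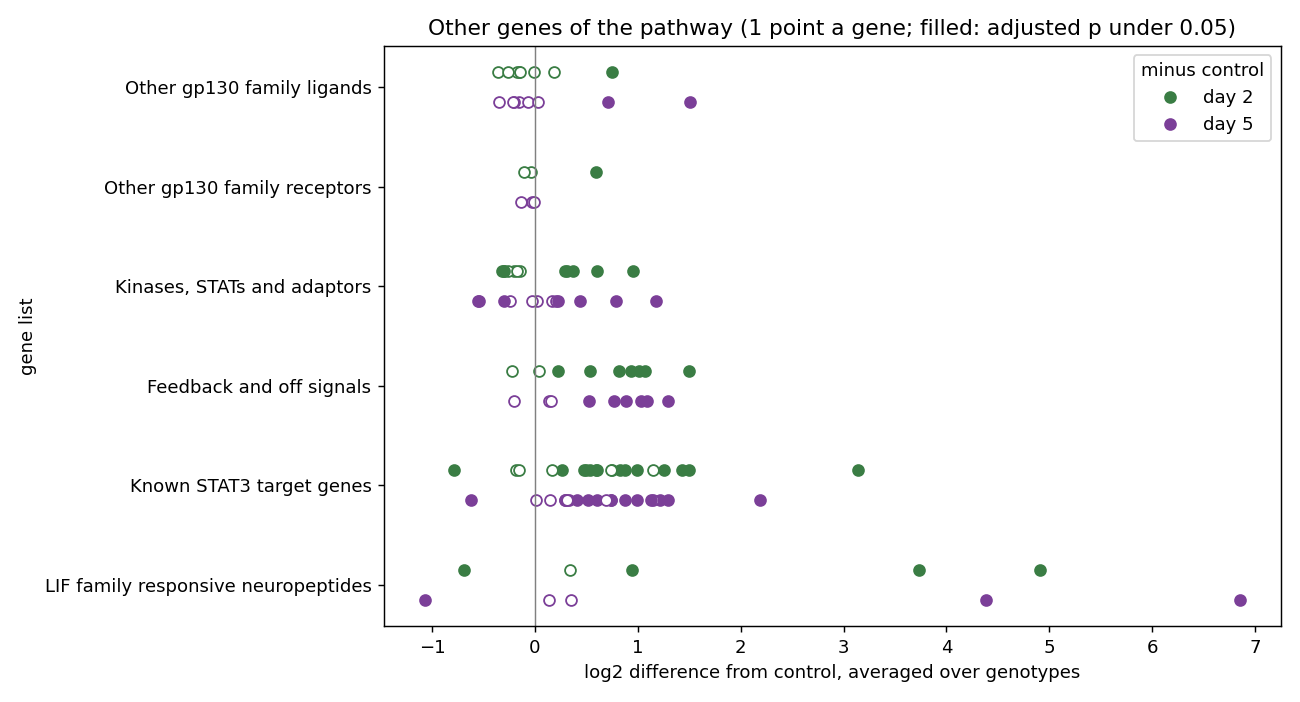
Difference from control on the log2 scale, averaged over genotypes, at day 2 (green) and day 5 (purple) for the genes of 6 lists of the pathway, with 1 point per gene. Filled points had an adjusted p under 0.05. The feedback genes lie to the right of 0 with few exceptions, up to 1.50 for *Socs3*, and *Npy* lies farthest right at 6.85.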

How the data were processed

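RNA of 24 samples was hybridised to 12 Agilent 4x44K arrays on 3 slides, with a different sample in each channel and 2 samples of each group per dye. Feature Extraction was used by the authors to read the scans, and the deposited files hold foreground, background and processed intensity values for each spot, not normalised between arrays, with flags for outliers and for signal over background. Whether control and lesioned DRGs of a pair came from 1 animal is not given in the sources used here.

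From these intensities the following was computed with R 4.3.3 and limma 3.58.1. Edwards background correction and quantile normalisation, here over the 24 channels, followed the methods of the study. Mean foreground and median background, the removal of control and outlier spots, and the mean of a probe's spots in log2 were choices made here. A linear model with a mean for each group took in all 24 samples (lmFit, eBayes), with p-values adjusted over 41174 probes. The model treated samples that shared an array as independent. Their estimated correlation within arrays was 0.262, or 0.393 with dye as a covariate, and array as a random block was among the alternatives. The brightest probe stood for a gene. The number of arrays limits the precision. The script was tested on simulated data. Alternatives covered background, normalisation, filters, probe choice, dye, slide, array and replicate blocks, and each sample left out.

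Named were all members, *Nfil3*, from each list the genes called for the lesion with the largest day 5 change (at most 4 per direction), and the most similar genes by Pearson r. Some list genes that the rule names are not reported here. The members and lists were chosen with earlier results of these data known. Sequences are from the deposited files and from RefSeq (GRCm38.p6), whose promoter table held 8 of the 9 names.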

Additional observations from a re-analysis of the deposited data

Results flagged for a closer look

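In the 84 groups of 4 given by the 14 member probes and 6 groups, 3 held a sample far from the other 3, where chance gives about 1 in 20. On the brighter *Il6ra* probe, WT control replicate 1 lay at 4.31 against 4.92 to 4.98, a gap of 0.916 of the range of the group. On the other *Il6ra* probe, WT day 5 replicate 2 lay at 4.08 against 4.39 to 4.44 (0.857 of the range), and for *Il6st*, WT day 2 replicate 1 lay at 10.95 against 11.08 to 11.11 (0.832 of the range).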

How the results depend on the processing

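*Il6* was called with the same sign in each lesion comparison under all 40 alternatives, with a day 2 difference over both genotypes from 1.23 to 3.35. *Clcf1* was called over both genotypes at day 2 (0.16 to 0.70) and day 5 (0.19 to 0.92) under all 40, and *Osmr* at day 5 under 39 of 40. The fall of *Osmr* from day 2 to day 5 was the least stable call, held under 26 of 40 and lost with 14 of the 24 samples left out in turn. Calling a gene on any of its probes gave 4 members at day 2 over both genotypes (with *Lifr* and *Osmr*) and 2 in KO at day 2. Without the 4 controls sharing an array with a lesioned sample, 1 member was called in WT at day 2. In KO at day 5, 2 members were called with no background correction, normexp, a filter on probes (well above background in 4 samples or more), slide as a block or a trend in eBayes, and 3 with the processed signals or with array as a random block and dye as a covariate. At day 5 over both genotypes the other settings gave 2 to 4 members (*Osmr* lost without those 4 controls, *Il6ra* added with no background correction), and in WT at day 5, 2 to 3. Leaving out 1 sample gave 2 to 3 members at day 2 over both genotypes (3, with *Cntfr*, without WT control replicate 1, as with slide as a block), 1 to 2 from day 2 to day 5 and 1 to 2 in KO at day 5. Between KO and WT 0 members were called under any alternative. The replicate numbers were not taken to pair the samples: 11 of 28 pairs of same-numbered samples had deviations correlated above 0.1 (-0.59 to 0.59). Within dye 16 of 28 did, with all 4 pairs in 3 of the 7 group comparisons. Since each group held 2 samples per dye, the 2 pairs of a dye in a comparison have the same value by construction. The count within dye thus holds each value 2 times and cannot decide the pairing. The replicate block left 3 members called for the lesion and changed no count. Dim probes (*Il6* in controls, *Clcf1*, *Il6ra*) limit the size of the differences given.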
